A study of Rattus norvegicus with 6 samples.

Results

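The genes described here encode splicing factors of 5 families in liver RNA: the SR proteins (symbols Srsf with a number), the hnRNP proteins (Hnrnp), the subunits of splicing factors SF3A and SF3B (Sf3a and Sf3b), the pre-mRNA processing factors (Prpf with a number) and the U2AF subunits (U2af). They were taken from the deposited gene table by symbol, keeping the rows annotated as protein coding, which gave 56 of its 32930 rows: 11 SR, 20 hnRNP, 9 SF3, 13 Prpf and 3 U2af genes. RNA was sequenced from the livers of 6 animals that all received a high-fat diet, 3 of them given 0.5% CMC-Na, a carboxymethyl cellulose vehicle (HFD group), and 3 given the Huazhuo Tiaozhi granule, a herbal preparation (HTG group), over 12 weeks. In the paper's rat experiment the diet lasted 12 weeks, and dosing began only part of the way through it. No group on a normal diet was analysed here, and the treatment label of the HTG libraries spells the preparation HCG. The labels name rats, the paper's sequencing methods name C57BL/6 J mice, and the rows carry mouse Ensembl identifiers, so the rows were read as mouse genes and coordinates follow the table. The only build that the submitters' processing notes name is the rat build mRatBN7.2.

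Pre-mRNA splicing removes introns in the spliceosome, a machine assembled anew on each intron from small nuclear RNAs and proteins. U2AF recognises the end of the intron, SF3A and SF3B belong to the U2 particle that binds the branch point, and many Prpf proteins belong to the tri-snRNP or help to activate the spliceosome. SR and hnRNP proteins bind the exons and introns themselves and help to decide which sites are used, SR proteins often in favour of an exon and hnRNP proteins often against it. Many of these genes also control their own level through unproductive splicing, in which an extra exon or a kept intron marks the transcript for nonsense-mediated decay (NMD).

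Total estimated counts lay between 50648778 and 90563477 per library. Low counts came in steps of about 4, so 1 fragment was read as 4 counts, and a gene was called empty at up to 3 fragments (12 counts, 0.123 to 0.256 CPM). CPM are counts scaled to a fixed total per library after TMM normalisation, and FPKM values also divide by transcript length. Values of single libraries are given in the order of their numbers, 1 to 3. Log2 fold changes compare HTG with HFD, and adjusted p-values come from the quasi-likelihood test of edgeR, with the Benjamini-Hochberg method applied over the 18455 genes that passed its expression filter. Hepatocyte markers were present, since all 10 genes listed were tested and summed to between 90810 and 106404 CPM in every library. Being bulk RNA, the data cannot tell fewer cells of a type from less RNA per cell.

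Of the 56 genes, 55 passed the filter. Srsf12 did not, its counts being 0, 4 and 4 in HFD and 3, 4 and 0 in HTG, all within the limit of an empty gene. At an unadjusted p under 0.05, 15 of the 55 were higher in HTG, where 12.3% of all genes tested were, and 10 were lower, where 12.4% were. Of the protein-coding genes alone, 11.5% were higher and 14.8% lower, and of all genes tested 24.7% passed in either direction. At an adjusted p under 0.05 the number was 0, against 25 at an unadjusted p under 0.05 and 11 by DESeq2 (8 higher and 3 lower). That adjusted threshold was passed by 0.0108% of all genes in edgeR, and DESeq2's by 6.58% in the higher and 8.1% in the lower direction. The smallest adjusted p was 0.0542, and 11 members were under 0.1 in edgeR, 8 higher and 3 lower, where 5.41% and 5.43% of all genes were (10.8% in both directions). The 3 libraries of each group did not overlap in 34 members, 20 of them higher and 14 lower, where 16.5% and 15.5% of all genes were. The count of lower members leaned on single libraries. It was 4 without HFD library 3, 5 without HTG library 2 and 3 without HTG library 3. In these fits 10.2%, 8.09% and 8.7% of all genes were lower. Whichever library was left out, 10 to 15 members were higher, where 8.07% to 11% of all genes were. Because no member passed the adjusted threshold, the members are described as higher or lower. The smallest p that an exact permutation test (two-sided) of 3 against 3 libraries allows is 0.1.

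By family, of the 10 SR genes tested, 6 were higher and 0 were lower at an unadjusted p under 0.05, with a median log2 fold change of 0.52 beside 0.03 over all genes tested. The 20 hnRNP genes had 3 higher and 3 lower (median -0.05), and the 9 SF3 genes 1 higher and 4 lower (median -0.31). The 13 Prpf genes had 5 higher and 3 lower (median -0.08), and the 3 U2af genes 0 in either direction (median 0.19). Of all genes tested, 12.3% were higher and 12.4% lower at that threshold, so the hnRNP counts were near these shares. Over all 55 genes the median was 0.06. The summed level of the SR genes was 939 ± 76.0 CPM in HFD and 1429 ± 185 CPM in HTG (SD, n = 3 per group), 1.52 times as high, and the lowest HTG library (1218 CPM) stood above the highest HFD library (1013 CPM). Summed hnRNP genes stood at 1886 ± 128 and 1958 ± 85.3 CPM, SF3 genes at 421 ± 22.3 and 403 ± 7.43 CPM, and Prpf genes at 566 ± 42.6 and 574 ± 23.2 CPM (SD, n = 3 per group). Summed U2af genes stood at 110.3 ± 11.9 and 127 ± 8.43 CPM (SD, n = 3 per group), and in these 4 families the group ranges of the sum overlapped.

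**Figure D1:**
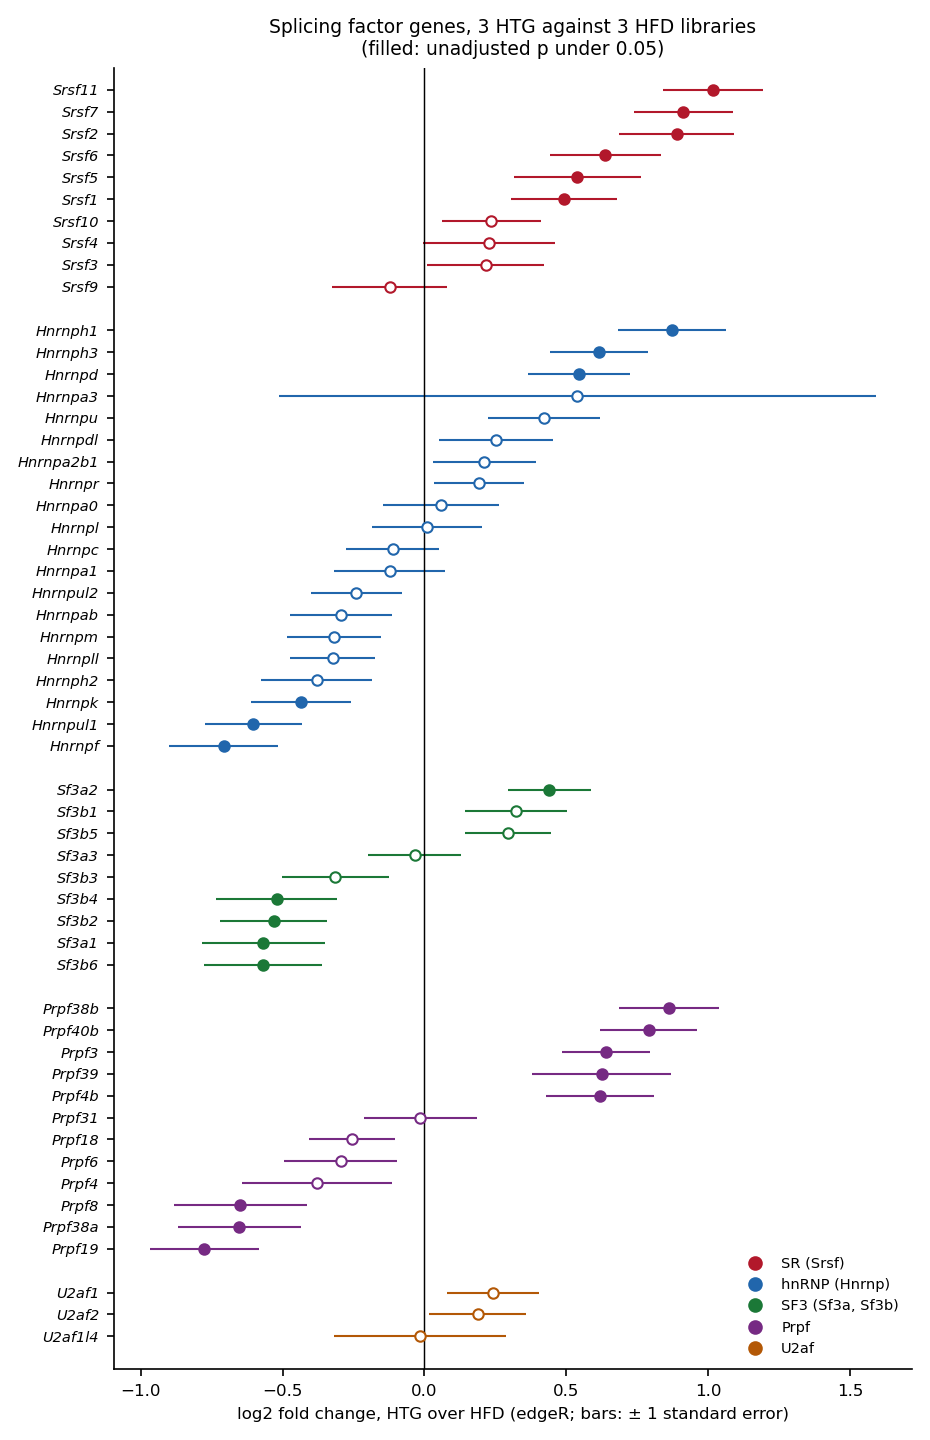
Log2 fold change of HTG over HFD for 54 of the 55 genes tested, ordered within each family, with bars of 1 standard error from edgeR's fit. SR genes reach from -0.12 to 1.02 with 9 of 10 above 0, while the SF3 genes reach from -0.57 to 0.44 with 6 of 9 below 0.

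Among the SR genes, whose proteins carry the arginine-serine repeats that give the family its name, Srsf11 had the largest log2 fold change. Srsf11 (ENSMUSG00000055436, chromosome 3, 157716110 to 157742276) had 82.1, 80.9 and 73.9 CPM in the HFD libraries and 138, 166 and 174 CPM in the HTG libraries. The groups were far apart, with the lowest HTG library above every HFD library by more than the spread within the HFD group (log2 fold change 1.02, standard error 0.18, unadjusted p = 0.000373 and adjusted p = 0.0542 in edgeR's quasi-likelihood test). It was the 1 member of all 55 past a log2 fold change of 1 in size at an unadjusted p under 0.05, thresholds that 8.85% of all genes passed.

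Srsf7, a factor that also takes part in mRNA export, had 31.9, 29.8 and 37.1 CPM in the HFD libraries and 55.5, 59.9 and 70.6 CPM in the HTG libraries (log2 fold change 0.91, standard error 0.17, unadjusted p = 0.000699 and adjusted p = 0.0582 in edgeR's quasi-likelihood test). Srsf2, the SR protein also known as SC35, had 121, 126 and 96.1 CPM in the HFD libraries and 180.1, 238 and 217 CPM in the HTG libraries (log2 fold change 0.89, standard error 0.20, unadjusted p = 0.00204 and adjusted p = 0.0613 in edgeR's quasi-likelihood test). In both genes every HTG library stood above every HFD library. Srsf2 (ENSMUSG00000034120, chromosome 11, 116740727 to 116743920) overlaps Mfsd11 and Mettl23 on the opposite strand, whose own rows had 10.3% and 6.68% as many counts.

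Srsf6 had 133, 171 and 129 CPM in the HFD libraries and 204, 236 and 234 CPM in the HTG libraries, without overlap (log2 fold change 0.64, standard error 0.20, unadjusted p = 0.0109 and adjusted p = 0.1 in edgeR's quasi-likelihood test). Srsf5, the SR gene with the highest level per length (90.5 FPKM over all libraries), had 316, 338 and 276 CPM in the HFD libraries and 346, 514 and 491 CPM in the HTG libraries, so HTG library 1 lay close to HFD library 2 (log2 fold change 0.54, unadjusted p = 0.041 in edgeR). Srsf1, the founding member of the family, had 101, 94.7 and 86.3 CPM in the HFD libraries and 109.5, 149 and 138 CPM in the HTG libraries, and here too HTG library 1 was the closest to the HFD group (log2 fold change 0.49, unadjusted p = 0.0291 in edgeR). Srsf1 and Srsf5 lost the unadjusted threshold in 5 of the 6 fits that left out a library, all but that without HTG library 1, which left 4 SR genes.

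The other 4 SR genes tested did not pass. Srsf3, one of the smallest SR proteins, had 47.8, 57.3 and 77.0 CPM in the HFD libraries and 65.3, 71.1 and 75.1 CPM in the HTG libraries, and HFD library 3 was above every HTG library (log2 fold change 0.22). Srsf4 and Srsf10 had log2 fold changes of 0.23 and 0.24, and Srsf9 was the 1 SR gene with a fitted value below 0, at -0.12. Srsf10 was the lowest SR gene tested per length, at 4.998 FPKM. The row of another gene on the opposite strand, Gm12992, had 17.4% as many counts as that of Srsf4.

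**Figure D2:**
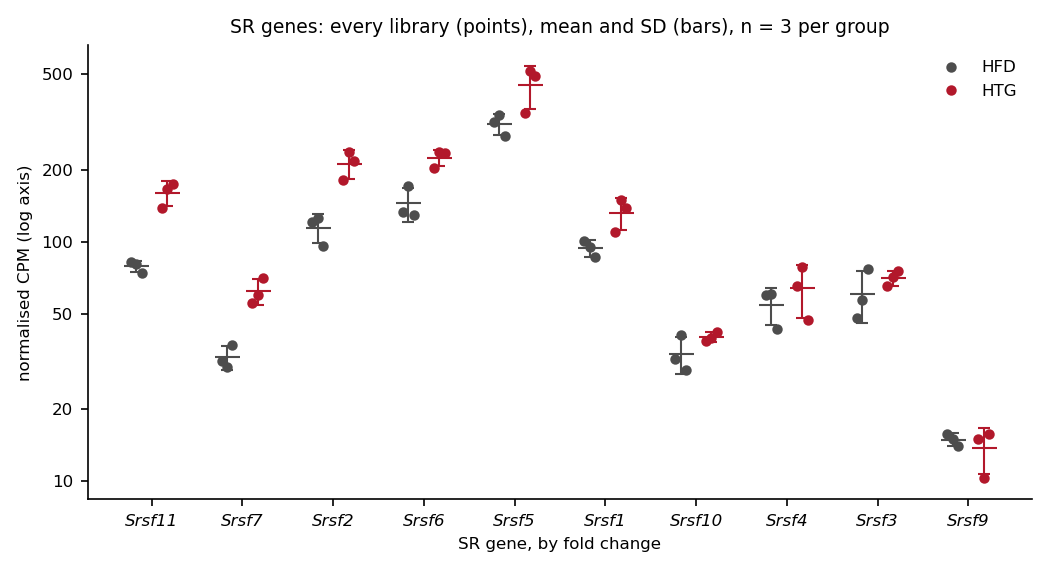
Level in CPM on a log scale of the SR genes tested, each point 1 library, with HFD and HTG libraries side by side and bars for each group's mean and SD. The groups stand apart in Srsf11, Srsf7, Srsf2, Srsf6, Srsf5 and Srsf1 and overlap in the other 4 genes.

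Transcripts that are kept in the nucleus were compared beside the SR genes. Of the 4 listed (Neat1, Malat1, Meg3 and Kcnq1ot1), none at 0, 2 were higher and 1 was lower at an unadjusted p under 0.05, where 12.3% and 12.4% of all genes were. Their sum ran from 495 to 1060 CPM in HFD and from 718 to 3305 CPM in HTG, with overlap. Neat1 alone stood at 464 ± 275 CPM in the HFD group and 1585 ± 1135 CPM in the HTG group (SD, n = 3 per group). Their part in the result for the SR genes was not tested.

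In the hnRNP family, whose proteins coat nascent transcripts, members with related sequence stood on opposite sides. Hnrnph1 (ENSMUSG00000007850, chromosome 11, 50267817 to 50277355), which encodes a protein that binds runs of G, had 96.4, 98.9 and 88.8 CPM in the HFD libraries and 143, 180.5 and 197 CPM in the HTG libraries. Its HTG libraries all exceeded its HFD libraries (log2 fold change 0.87, standard error 0.19, unadjusted p = 0.0016 and adjusted p = 0.0605 in edgeR's quasi-likelihood test). Hnrnpf (ENSMUSG00000042079, chromosome 6, 117877285 to 117902583), which encodes a close relative with the same kind of binding, had 115, 152 and 135 CPM in the HFD libraries and 91.5, 84.5 and 69.6 CPM in the HTG libraries. All its HTG libraries lay below its HFD libraries (log2 fold change -0.71, standard error 0.19, unadjusted p = 0.00592 and adjusted p = 0.0816 in edgeR's quasi-likelihood test).

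Hnrnph3, a further relative, had 24.1, 19.7 and 18.3 CPM in the HFD libraries and 29.7, 35.7 and 29.7 CPM in the HTG libraries (log2 fold change 0.62, unadjusted p = 0.00695 in edgeR), with no overlap of the groups. The row of Rufy2 on the opposite strand had 25.2% as many counts as that of Hnrnph3. Hnrnpd, which encodes the AU-rich element binding protein AUF1, had 42.7, 44.0 and 44.4 CPM in the HFD libraries and 51.1, 73.2 and 67.1 CPM in the HTG libraries (log2 fold change 0.54, unadjusted p = 0.0162 in edgeR). HTG library 1 was the lowest of its group in Hnrnpd, still above the HFD libraries.

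Lower in HTG beside Hnrnpf were Hnrnpul1 and Hnrnpk. Hnrnpul1, a relative of the nuclear scaffold protein gene Hnrnpu, had 57.6, 59.5 and 75.3 CPM in the HFD libraries and 41.3, 40.9 and 44.5 CPM in the HTG libraries, without overlap (log2 fold change -0.60, standard error 0.17, unadjusted p = 0.00734 and adjusted p = 0.0873 in edgeR's quasi-likelihood test). Hnrnpk, whose protein binds runs of C through KH domains, had 156, 181 and 192 CPM in the HFD libraries and 134, 133 and 124 CPM in the HTG libraries (log2 fold change -0.44, unadjusted p = 0.037 in edgeR). The Hnrnpk groups did not overlap either, and the row of Rmi1 on the opposite strand had 10.7% as many counts. Hnrnpk lost the unadjusted threshold without HFD library 2 or 3 and without HTG library 2 or 3 (log2 fold changes from -0.45 to -0.37). It also lost it with the replicate number as a block. Hnrnpd lost it without HFD library 1 (0.53) or HTG library 2 (0.43).

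The most abundant hnRNP transcript per length was Hnrnpa2b1 (51.3 FPKM), with 315, 338 and 337 CPM in the HFD libraries and 361, 373 and 411 CPM in the HTG libraries. Its groups did not overlap, yet the difference was small beside its error (log2 fold change 0.21, standard error 0.18, unadjusted p = 0.278 in edgeR). Hnrnpa1, which counters Srsf1 at many exons, had a log2 fold change of -0.12 ± 0.20 (± standard error), and Hnrnpr, the lowest tested at 1.23 FPKM, one of 0.19 ± 0.16. Hnrnpu, chosen after its values were seen, had 227, 250.4 and 207 CPM in the HFD libraries and 295, 353 and 269 CPM in the HTG libraries, without overlap (log2 fold change 0.42, unadjusted p = 0.063 in edgeR). Leaving aside Hnrnpa3, whose libraries were spread within both groups, the 10 hnRNP genes not in the rule for naming, Hnrnpu among them, had log2 fold changes from -0.38 to 0.42 and 0 passed the unadjusted threshold. Over the family, the libraries did not overlap in 5 higher and 7 lower genes of 20, where 16.5% and 15.5% of all genes tested did not. Of the fitted values, 10 lay on each side of 0.

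Among the genes of SF3A and SF3B, which hold the U2 particle at the branch point, 4 were lower and 1 was higher at the unadjusted threshold. Of all genes tested, 12.4% were lower and 12.3% higher. In this family 6 of 9 fitted values lay below 0. Sf3b2 had 112, 104 and 117 CPM in the HFD libraries and 91.4, 64.7 and 74.0 CPM in the HTG libraries (log2 fold change -0.53, standard error 0.19, unadjusted p = 0.0208 and adjusted p = 0.131 in edgeR's quasi-likelihood test), without overlap. Sf3a1, the SF3 gene with the lowest level per length (3.23 FPKM), had 19.97, 23.2 and 31.4 CPM in the HFD libraries and 19.5, 14.0 and 16.7 CPM in the HTG libraries (log2 fold change -0.57, unadjusted p = 0.0296 in edgeR). Its lowest HFD library lay just above its highest HTG library.

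Sf3b6, which encodes a small protein near the branch point adenosine, had 19.95, 23.9 and 23.7 CPM in the HFD libraries and 19.0, 11.8 and 14.7 CPM in the HTG libraries (log2 fold change -0.57, unadjusted p = 0.024 in edgeR). Sf3b4 also passed the unadjusted threshold (log2 fold change -0.52, unadjusted p = 0.0387 in edgeR), although its HFD library 1, at 16.8 CPM, was below HTG library 1, at 18.3 CPM. These 4 lower calls rested on single libraries: 2 were left without HFD library 2, and 0 when HFD library 3 was left out, as also with HTG library 2 or 3. Sf3b4 also lost the threshold with the replicate number as a block.

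Sf3a2, the 1 SF3 gene higher at the unadjusted threshold, had 19.2, 21.4 and 20.4 CPM in the HFD libraries and 27.0, 29.5 and 26.2 CPM in the HTG libraries (log2 fold change 0.44, unadjusted p = 0.0158 in edgeR). The groups of Sf3a2 did not overlap, and the row of Plekhj1 on the opposite strand had 58.5% as many counts. Sf3a2 lost the threshold in DESeq2, and without HFD library 1 (0.40) or HTG library 2 (0.39). Sf3b1, the largest SF3B subunit and the SF3 gene with the highest level per length (13.2 FPKM), had 138, 147 and 134 CPM in the HFD libraries and 156, 198 and 171 CPM in the HTG libraries, higher in every HTG library and not past the threshold (log2 fold change 0.32, unadjusted p = 0.107 in edgeR). Sf3b5, the smallest subunit, stood at 19.7 ± 1.56 CPM in the HFD group and 24.2 ± 1.93 CPM in the HTG group (SD, n = 3 per group), with an unadjusted p of 0.0884 in edgeR. Sf3a3 and Sf3b3, the remaining SF3 genes taken by symbol, had log2 fold changes of -0.03 and -0.31. The row of Cog4 on the opposite strand had 131% as many counts as Sf3b3.

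Of the 13 Prpf genes, 5 were higher and 3 were lower at the unadjusted threshold, where 12.3% and 12.4% of all genes were. Relatives of like name were found on both sides. Prpf38b (ENSMUSG00000027881, chromosome 3, 108810121 to 108819043) had 58.7, 56.7 and 52.3 CPM in the HFD libraries and 88.4, 118 and 98.7 CPM in the HTG libraries. The lowest HTG library stood well above the highest HFD library (log2 fold change 0.86, standard error 0.18, unadjusted p = 0.00108 and adjusted p = 0.0585 in edgeR's quasi-likelihood test). Prpf38a, whose product is needed to activate the spliceosome, had 6.97, 8.58 and 8.53 CPM in the HFD libraries and 4.71, 5.90 and 4.70 CPM in the HTG libraries, with every HTG library below every HFD library (log2 fold change -0.65, unadjusted p = 0.0161 in edgeR). At 1.18 FPKM it was also the least abundant Prpf gene.

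Prpf40b, a relative of a yeast U1 protein, had 27.5, 24.0 and 23.0 CPM in the HFD libraries and 36.7, 48.3 and 43.8 CPM in the HTG libraries (log2 fold change 0.79, standard error 0.17, unadjusted p = 0.00149 and adjusted p = 0.0605 in edgeR's quasi-likelihood test). Prpf3, a protein of the U4/U6 particle, had 10.5, 11.8 and 10.7 CPM in the HFD libraries and 17.1, 17.3 and 16.9 CPM in the HTG libraries (log2 fold change 0.64, standard error 0.15, unadjusted p = 0.00301 and adjusted p = 0.0654 in edgeR's quasi-likelihood test). Neither gene had overlapping groups, and the 3 HTG libraries of Prpf3 differed by under 1 CPM. Prpf4b, a kinase of the spliceosome, and Prpf39, another relative of a U1 protein, were the other 2 higher genes, each with a log2 fold change of 0.62 (unadjusted p = 0.0111 and 0.0328 in edgeR). The row of Fkbp3 on the opposite strand had 46.1% as many counts as that of Prpf39. The threshold was lost by Prpf39 without HFD library 1, HFD library 3 or HTG library 2 (0.34), and by Prpf4b without HTG library 3. Prpf39 also lost it in limma on the FPKM values.

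Prpf19 (ENSMUSG00000024735, chromosome 19, 10872595 to 10882896), a ubiquitin ligase that gives its name to a complex of the active spliceosome, had 89.4, 87.3 and 103 CPM in the HFD libraries and 62.3, 43.6 and 57.3 CPM in the HTG libraries. Its groups were apart, all HTG libraries being lower (log2 fold change -0.78, standard error 0.19, unadjusted p = 0.00335 and adjusted p = 0.0663 in edgeR's quasi-likelihood test). Prpf8, the large protein at the catalytic centre and the most abundant Prpf gene per length (15.4 FPKM), had 123, 121 and 195 CPM in the HFD libraries and 100.3, 96.6 and 82.9 CPM in the HTG libraries, and HFD library 3 was far above the other two of its group (log2 fold change -0.65, unadjusted p = 0.0228 in edgeR). Prpf8 lost the threshold without HFD library 3 (log2 fold change -0.39) and without HTG library 3 (-0.57), and with HTG library 3 left out Prpf38a lost it too (-0.59). Prpf8 also lost it with the replicate number as a block. Without HTG library 3 the count of lower Prpf genes was 1 in place of 3. Of the other Prpf genes, Prpf31, Prpf18, Prpf6 and Prpf4 had log2 fold changes from -0.38 to -0.01, and 0 passed.

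For U2AF no member passed either threshold. U2af1, the small subunit that reads the AG at the intron's end, had 35.9, 45.1 and 45.0 CPM in the HFD libraries and 48.4, 50.7 and 49.7 CPM in the HTG libraries, higher in every HTG library by a small margin (log2 fold change 0.24, unadjusted p = 0.176 in edgeR). U2af2, the large subunit that binds the polypyrimidine tract, had 57.7, 72.1 and 67.1 CPM in the HFD libraries and 66.7, 78.8 and 78.8 CPM in the HTG libraries, with overlap (log2 fold change 0.19, unadjusted p = 0.305 in edgeR). U2af1l4, a relative of U2af1, had a log2 fold change of -0.02 ± 0.30 (± standard error), and its row lies on the same strand as Gm49396, whose own row had 803% as many counts, so its level is uncertain. In all, 27 of the 56 genes are overlapped by another row. A row with at least 10% as many counts as the member lay on the same strand in 2 of them, U2af1l4 and Hnrnpm (Marchf2, 52.3%), and on the opposite strand in 10, the others beside those given above being Hnrnpab, Sf3b4 and Prpf6. As it is not stated whether the counting used the strand, these counts are uncertain.

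**Figure D3:**
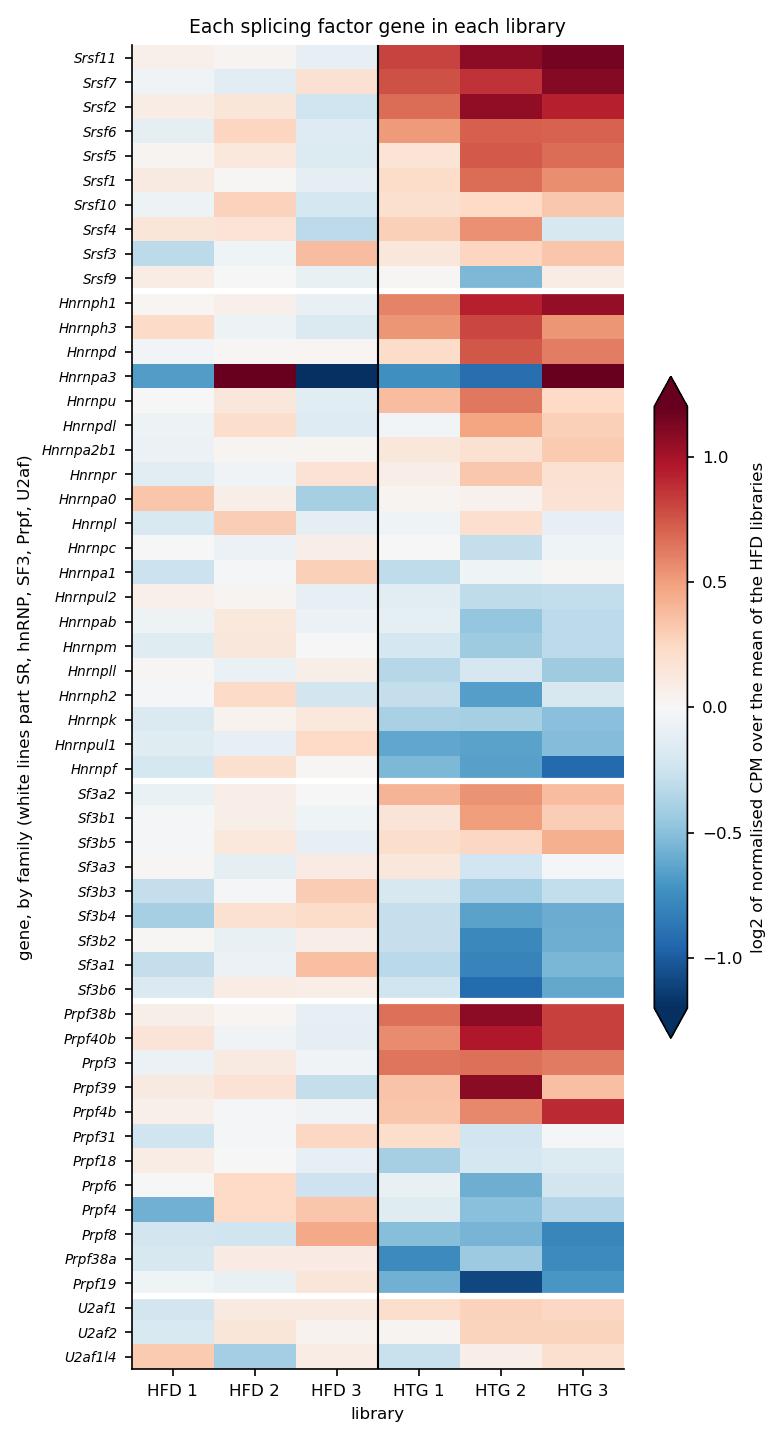
Level of 54 of the 55 genes tested in each library, as the difference of its log2 CPM from the mean of its 3 HFD libraries, with genes in rows by family and libraries in columns. Colours end at 1.2 on either side, and Hnrnpa3, high in HFD library 2 and HTG library 3 alone, goes beyond that range.

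Because related genes stood on opposite sides, the ratio of their CPM was taken within each library for 15 pairs, a list and an order of genes chosen after the values were seen, so that no test is given. For Hnrnph1 over Hnrnpf the ratio was 0.837, 0.653 and 0.660 in HFD and 1.56, 2.13 and 2.83 in HTG. These ratios are not corrected for transcript length, so their change between the groups can be read and their size cannot. For Prpf38b over Prpf38a it was 8.41, 6.61 and 6.13 in HFD and 18.8, 19.9 and 21.0 in HTG. The log2 ratio was higher in HTG by 1.57 (standard error 0.27) for the first pair and by 1.51 (standard error 0.15) for the second. Further differences of the log2 ratio were 1.24 for Hnrnph1 over Hnrnph2, 1.01 for Hnrnpu over Hnrnpul1, 0.67 for Srsf7 over Srsf3 and 0.63 for Srsf1 over Srsf9. In 11 of the 15 pairs the ratios of the groups did not overlap, a number that the choice of pairs helped to set.

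**Figure D4:**
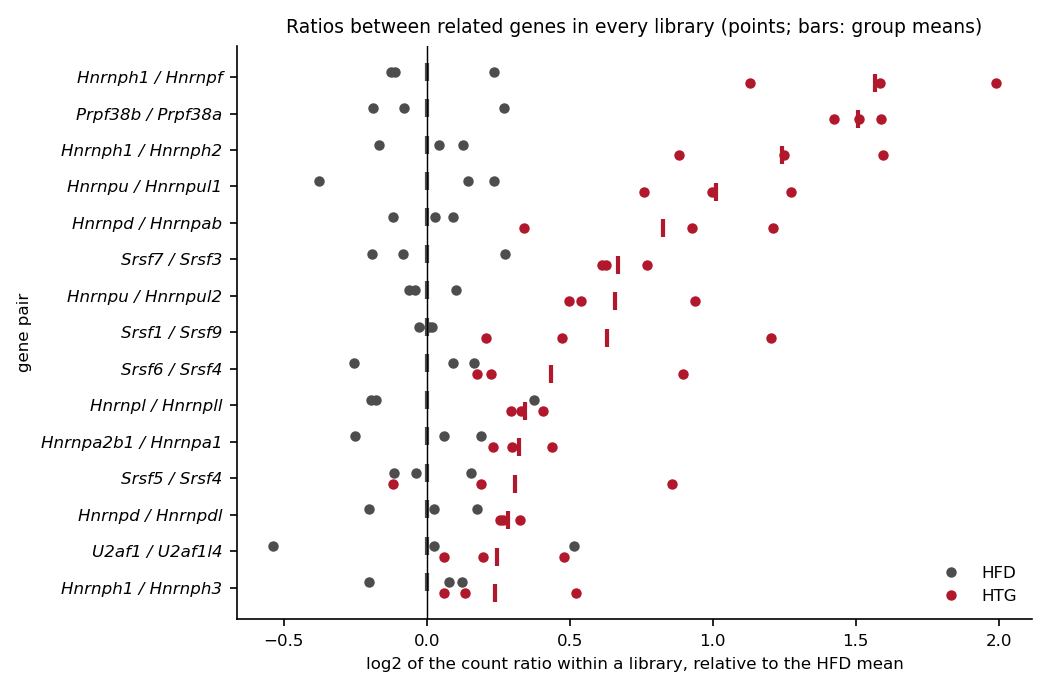
Log2 of the CPM ratio of related genes within each library, minus the mean of the HFD libraries, for the 15 pairs named on the axis, each point 1 library and each bar a group mean. HTG libraries stand above HFD libraries without overlap in 11 pairs, with the widest gaps in Hnrnph1 over Hnrnpf and Prpf38b over Prpf38a.

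The table lists the transcript types annotated for each gene, and these were set beside the fold changes after the values had been seen. A transcript marked as a target of NMD was listed for 30 of the 56 genes (53.6%). It was listed for 17.9% of all protein-coding rows and for 21.7% of the protein-coding genes tested. By family, it was listed for 9 of 11 SR, 10 of 20 hnRNP, 1 of 9 SF3, 7 of 13 Prpf and 3 of 3 U2af genes. Of the 30 tested members with such a transcript, 13 were higher and 1, Hnrnpk, was lower at an unadjusted p under 0.05, with a median log2 fold change of 0.29. Of the 25 tested members without one, 2 (Hnrnph1 and Sf3a2) were higher and 9 were lower, with a median of -0.31. Among all protein-coding genes tested, 15.7% of the 3113 with such a transcript were higher and 13.7% were lower (median 0.02), and of the 11234 without one 10.3% were higher and 15.1% lower (median -0.07). The 9 lower members became 4 without HFD library 3, 5 without HTG library 2 and 3 without HTG library 3. Of all genes tested in these fits, 10.2%, 8.09% and 8.7% were lower. Counts per gene do not tell productive transcripts from those marked for decay.

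For the other lists of splicing genes, counts are at an unadjusted p under 0.05, where 12.3% of all genes were higher and 12.4% lower. The SR-related proteins, which share the arginine-serine repeats, had 14 higher and 1 lower of 26 tested (median log2 fold change 0.45). Tra2a, a splicing activator of this list, had 26.1, 21.6 and 24.8 CPM in the HFD libraries and 43.1, 52.3 and 50.7 CPM in the HTG libraries (log2 fold change 1.01, standard error 0.16, unadjusted p = 0.000229 and adjusted p = 0.0538 in edgeR's quasi-likelihood test). The lower gene was Scaf11, at -0.39 ± 0.17 (log2 fold change ± standard error), which lost the threshold in 4 of the 6 fits that left out a library and was -0.27 without HFD library 2. Of 11 genes listed as kinases and phosphatases of SR proteins or their regulators, 5 were higher and 2 lower (median 0.44). Srpk3, among them and not passing, had only 6, 10 and 13 counts in HFD and 21, 48 and 18 in HTG. The CDC-like kinase gene Clk4, which had the smallest p of the higher genes, had 63.6, 59.4 and 44.8 CPM in the HFD libraries and 91.4, 130.3 and 112 CPM in the HTG libraries, and its relatives Clk1, Clk2 and Clk3, added after their values were seen, had log2 fold changes of 0.94, 0.89 and 0.44. Ppp1ca, a catalytic subunit of protein phosphatase 1, stood at 103 ± 7.23 CPM in the HFD group and 63.9 ± 16.7 CPM in the HTG group (SD, n = 3 per group), and lost the threshold without HTG library 3.

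Of the 27 Sm and LSm core genes and their snRNP partners tested, 11 were higher and 3 lower (median 0.24), with the smallest p in Lsm7, at 5.73 ± 0.974 CPM in the HFD group and 14.2 ± 3.05 CPM in the HTG group (SD, n = 3 per group), and in Snrpb, at 41.6 ± 9.06 CPM in the HFD group and 18.4 ± 7.81 CPM in the HTG group (SD, n = 3 per group). Other splicing regulators had 7 higher and 4 lower of 33 (median 0.01), with Rbm5 at 0.79 ± 0.17 and the polypyrimidine tract binding gene Ptbp3 at -0.94 ± 0.20 (log2 fold change ± standard error). NMD factors had 1 higher, Upf3b (1.19 ± 0.23), and 1 lower, Smg8 (-0.60 ± 0.22), of 10 (median 0.05), and Smg8 lost the threshold when HFD library 2 was left out, and likewise for HTG library 2 or 3. As for the members, none of these genes had an adjusted p under 0.05 in edgeR, where 0.0108% of all genes did. In DESeq2 29 of the 107 did, where 14.7% of all genes did. At an unadjusted p under 0.05 in edgeR 49 passed, where 24.7% of all genes did, 12.3% as higher and 12.4% as lower.

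**Figure D5:**
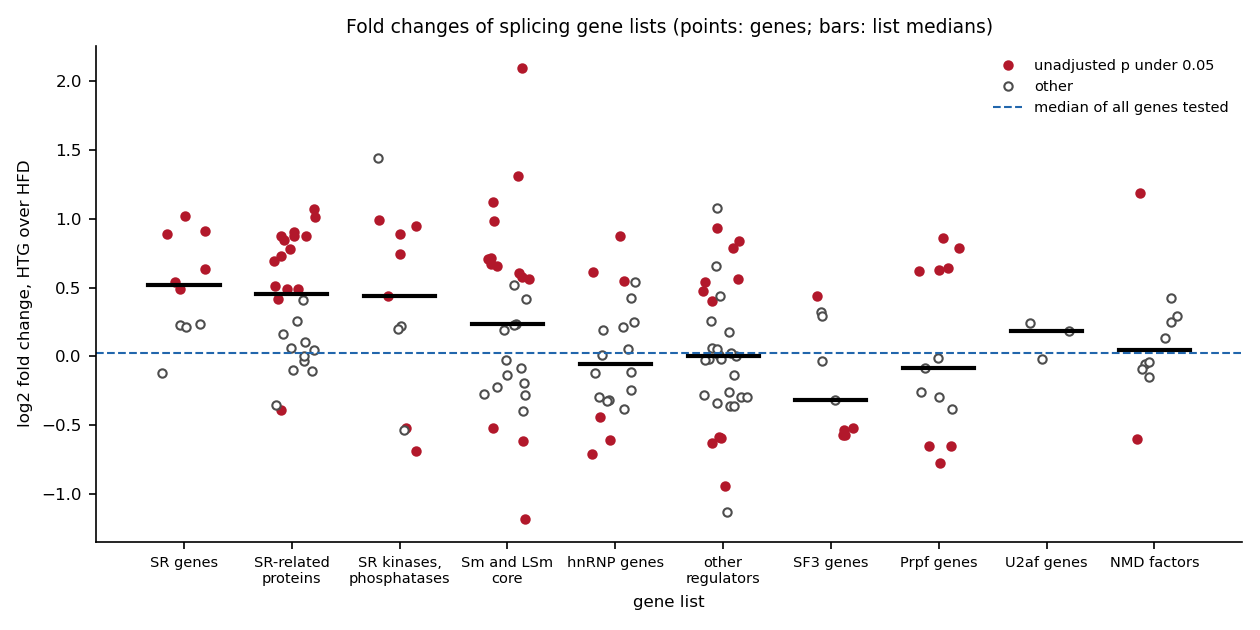
Log2 fold change of HTG over HFD of each tested gene in the 5 families and in the other lists of splicing genes, each point 1 gene, with the median of each list as a line. The SR genes (0.52), SR-related proteins (0.45) and SR kinases and phosphatases (0.44) have the highest medians, and the SF3 genes (-0.31) the lowest.

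Marker lists of other cell types were summed in each library. Their counts of higher and lower genes are at an unadjusted p under 0.05, where 12.3% of all genes were higher and 12.4% lower. Endothelial markers had 1 of 10 tested higher and ran from 129 to 265 CPM in HFD and from 206 to 320 CPM in HTG. Macrophage markers had 2 of 12 lower and ran from 892 to 1568 CPM in HFD and from 671 to 1197 CPM in HTG. Hepatocyte markers had 1 of 10 higher and 3 lower, and 7 of the 10 fitted values lay below 0. Median log2 fold changes were 0.40 for endothelial, -0.36 for macrophage and -0.52 for hepatocyte markers. The group ranges of the sums overlapped in these 3 lists. Most of the hepatocyte sum was Alb, at 66149 ± 8325 CPM in the HFD group and 54379 ± 848 CPM in the HTG group (SD, n = 3 per group). Stellate cell markers had 1 higher and 1 lower of 10, cholangiocyte markers 1 and 1 of 8, red cell markers 0 and 1 of 7, cell cycle genes 0 and 1 of 8, immediate early genes 1 and 2 of 8, and neither lymphocyte markers (9 tested) nor exocrine pancreas markers (2 tested) had any. Among the lists, 3 pancreas markers were at 0 in every library. The part of these genes in the results was not tested.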

How the data were processed

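Poly(A) RNA from liver was sequenced as paired-end reads in 6 libraries, grouped by their labels. For every gene in each library the authors deposited an estimated count, a whole number with no scaling between libraries. FPKM values, deposited by the authors as well, are scaled by transcript length and library size. The submitters' processing notes name HISAT2, StringTie and SAMtools, with no versions, and the build mRatBN7.2. The study's methods describe dUTP strand marking while the labels name a NEBNext Ultra kit, and whether counting used the strand is not given in the sources used here, so counts of overlapping and near-identical genes are uncertain. The reference tables supplied were of rat and were not used, and no sequence is printed.

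Estimated counts were tested in edgeR 4.0.16 (glmQLFit and glmQLFTest, TMM, filterByExpr, group as the only term; R 4.3.3) over all genes. No interval is given for Srsf12, the member called empty. DESeq2 1.42.0, a fit with no filter, a filter of 10 or more counts per library, 2 other scalings, the replicate number as a block, limma 3.58.1 on log2(FPKM + 0.1) and log2(FPKM + 1) of genes averaging 1 FPKM or more, counts divided by 4 and each library left out were the 15 alternatives. Scripts were tested on simulated data. The members and lists were chosen with earlier results of these data known. The genes named are, per family, those with the 3 smallest p in each direction, those of highest and lowest FPKM and prototypes, and per list the smallest p in each direction. The values of 1 Prpf gene are not reported here, though the counts include it. Other genes named, the gene pairs and the split by NMD transcripts were chosen after their values were seen.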

Additional observations from a re-analysis of the deposited data

How the results depend on the processing

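All 25 members with an unadjusted p under 0.05 kept their sign in the 15 alternatives, and 12 kept that threshold in each of them: Srsf11, Srsf7, Srsf2, Srsf6, Hnrnph1, Hnrnph3, Prpf38b, Prpf40b and Prpf3 (higher) and Hnrnpf, Hnrnpul1 and Prpf19 (lower). The number of members past an adjusted p under 0.05 was 11 in DESeq2 (14.7% of all genes), 7 with counts divided by 4 (5.52%), 6 with a filter of 10 counts per library (4.43%) and 6 in limma with either pseudocount (8.03% and 8.09%), and 0 to 4 when 1 library was left out (4 without HTG replicate 1, where 3.38% of all genes passed). The cause was not tested. With 1 library left out, 10 to 15 members were higher, and 3 to 10 lower, under an unadjusted p of 0.05, and the median log2 fold change ran from 0.017 to 0.16. In those fits 8.07% to 11% of all genes were higher and 8.09% to 14.8% lower at that threshold. Lower genes in those fits numbered 0 to 4 for SF3, 1 to 4 for Prpf and 3 to 9 among the members without an NMD transcript. In limma with either pseudocount 5 of the 20 hnRNP genes were lower at an unadjusted p under 0.05, where 19.1% and 19.2% of all genes were. Fitted values close to 0 changed sign: Hnrnpa1 (-0.25 to 0.026 with 1 library left out), Srsf9 (-0.24 to 0.049) and U2af1l4 (-0.20 to 0.15, 0.014 with upper-quartile scaling and 0.0029 with the replicate block). Replicate numbers are shared by the groups, but same-numbered libraries did not deviate together (r = -0.08, -0.07 and 0.10), and neither did every library correlate best with its own number. The replicate block gave 13 higher and 7 lower members under an unadjusted p of 0.05 (10.4% and 10.5% of all genes), 4 SR genes higher and 0 members past the adjusted threshold, and gives no value for overlap. The libraries held 12662194 to 22640869 fragments, and Srsf12 was the member at or under 3 fragments in all of them.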

Other observations

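Hnrnpa3, which encodes a relative of hnRNP A1 and A2/B1, stood apart from all other members by its spread between libraries. Its estimated counts were 724, 4126 and 524 in HFD and 788, 878 and 4549 in HTG, or 10.6, 61.9 and 7.30 CPM and 10.1, 8.98 and 97.1 CPM. HFD library 2 and HTG library 3 were thus far above the other 4 libraries, 1 in each group. Its log2 fold change of 0.54 had a standard error of 1.05, and DESeq2 gave it no adjusted p. That value was -1.45 without HTG library 3 and 2.10 without HFD library 2, so its direction rested on single libraries. Hnrnpa3 was chosen here after its values were seen.

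Rows annotated as pseudogenes that bear the name of a member were left out of the 56 genes. These 3 rows were Hnrnpa1l2-ps, Hnrnpa1l2-ps2 and Srsf3-ps, and near-identical copies of this kind can share reads with their parent genes.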
